A study of Mus musculus with 8 samples.

Results

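Clock genes were read in whole retina of 2-week-old mice without Lpcat1, an enzyme that adds acyl chains to lysophosphatidylcholine and makes the saturated phosphatidylcholine abundant in lung surfactant and in photoreceptor membranes. The 30 genes form the circadian clock and its direct outputs, together with genes of the retina's own daily rhythm, and they were listed by name from knowledge of the clock, with earlier results of these data known. On the array they had 38 probes, matched through the RefSeq transcript named for each probe, out of 20018 genes with a named probe. Of the 30 genes, 29 had at least 1 probe that could be tested, among 14940 genes tested in all.

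The study set Lpcat1 WT mice against Lpcat1 KO mice, both of the strain C57BL/6, both untreated and both 2 weeks old, and asked which retinal transcripts differ when the enzyme is lost. The knockout was present in the whole body, so the retina was not the single tissue that lacked the enzyme. It had been made in C57BL6/N mice and crossed to C57BL6/J to remove the rd8 allele of Crb1, a retinal degeneration allele of the N substrain. Mice homozygous for rd8 were not used, and whether any mouse was heterozygous is not given. Total RNA of each of 4 WT and 4 KO samples was labelled with Cy3 and hybridised to 1 Agilent array, and the labels do not say that each sample was a separate animal, so that all p-values measure the spread between these samples. The paper kept its mice in a normal light-dark cycle or, for a period after birth, in complete darkness. Which of these held for the array mice, and the hour of dissection, are not given in the sources used here. Whether both genotypes were sampled at 1 hour was not tested.

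In the molecular clock, CLOCK (or its relative NPAS2) and BMAL1, the product of Arntl, bind a short DNA element called the E-box and switch on the genes of their own repressors, the Period and Cryptochrome proteins. The same E-boxes drive Nr1d1 and Nr1d2, whose products REV-ERB alpha and beta repress Arntl, Nfil3 and Cry1 through ROR elements, to which ROR alpha binds as an activator. The E-boxes also drive Dbp, Tef and Hlf, whose products act at a further element, the D-box. E-box targets and ROR-element targets therefore peak at opposite times of day. The retina runs such a clock of its own, which sets daily rhythms of melatonin and dopamine and of light sensitivity.

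The promoters of 4 clock genes are shown for the E-box they hold, 3 of them from the E-box and D-box targets and 1, Cry1, from the ROR-element targets. The RefSeq promoter table (build GRCm38.p6, 250 bases before to 50 after each transcript start) held 25 of the 30 genes. Not among them were Per2, Bhlhe40, Csnk1d, Btrc and Aanat. The E-box was searched as CACGTG, which reads the same on both strands. It was found in 6 of the 25 genes (Per1, Ciart, Bhlhe41, Tef, Cry1 and Adcy1), against 8.09% of all genes in the table and 7.15% of all its promoters. It was in 4 of the 11 E-box and D-box targets that the table held, and not in this window of Nr1d1, Nr1d2, Usp2, Dbp, Hlf, Per3 and Cry2. Below are the 180 bases upstream of the first listed start of Per1 (chr11:69098769-69098948, plus strand), Ciart (chr3:95882229-95882408, minus strand), Bhlhe41 (chr6:145865421-145865600, minus strand) and Cry1 (chr10:85185055-85185234, minus strand), 5′ to 3′ on the gene's strand, with the E-boxes in capitals.
Per1: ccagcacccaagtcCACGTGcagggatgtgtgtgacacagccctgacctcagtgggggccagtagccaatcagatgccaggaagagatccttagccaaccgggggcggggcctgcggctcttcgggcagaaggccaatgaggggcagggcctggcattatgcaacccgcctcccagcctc
Ciart: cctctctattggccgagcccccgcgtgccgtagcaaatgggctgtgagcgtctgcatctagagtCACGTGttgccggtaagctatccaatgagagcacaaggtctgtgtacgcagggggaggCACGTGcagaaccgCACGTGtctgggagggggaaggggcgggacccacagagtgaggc
Bhlhe41: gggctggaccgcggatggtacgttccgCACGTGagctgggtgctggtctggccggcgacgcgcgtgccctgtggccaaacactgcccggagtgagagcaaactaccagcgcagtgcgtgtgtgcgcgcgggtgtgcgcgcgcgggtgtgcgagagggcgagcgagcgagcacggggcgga
Cry1: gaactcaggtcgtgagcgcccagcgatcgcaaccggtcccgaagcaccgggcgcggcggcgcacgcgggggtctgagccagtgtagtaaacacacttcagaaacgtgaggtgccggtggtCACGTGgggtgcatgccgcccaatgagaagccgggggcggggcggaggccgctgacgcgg
Ciart had 3 such elements, at positions -116, -58 and -44 from its start, and each of the other 3 windows had 1. A D-box, TTATGTAA or TTACGTAA on either strand, was found in 2 genes, Per3 and Timeless (1.23% of all genes). The ROR core, TAGGTCA or TGGGTCA on either strand, was found in 2, Arntl and Nfil3 (7.35% of all genes). The cAMP response element, TGACGTCA, was found in Hlf alone of the 25 (2.03% of all genes). A match says that these letters are in the window, not that a factor binds there.

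Levels are log2 of the background-corrected signal of a probe minus the 75th percentile of its array, so that 0 is the brightness of the probe at that percentile. Levels of different probes cannot be set against each other, so each difference between genotypes was taken within a probe, or within the same sum of probes for a list. A gene was called when its brightest tested probe had an adjusted p under 0.05 and differed over 1.2-fold between genotypes, so that a smaller difference was not called whatever its p. Adjusted p-values are those of limma, corrected over all tested probes by the Benjamini-Hochberg method. All 36 tested clock probes were well above background on all 8 arrays. The 2 untested ones were dim. The only probe of Npas2, a partner of BMAL1, cleared the background on 1 WT array and on no KO array, and the dimmer probe of Arntl2 on 1 KO array and on no WT array. No fold is given for these.

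Before the results, some facts of the arrays bear on them. The probe for Lpcat1 itself lay at -0.41 on average in WT and -0.87 in KO, a difference of -0.46 (SE 0.04, adjusted p = 0.0036 by limma), and whether it lies in the deleted part is not given in the sources used here. All 8 arrays lay on 1 slide, with the WT arrays in 1 of its rows and the KO arrays in the other, so that row and genotype cannot be told apart. Correlation over tested probes was 0.9964 to 0.9975 between WT arrays, 0.9952 to 0.9961 between KO arrays and 0.9945 to 0.9959 between genotypes. Over all probes, 471 were called higher and 522 lower in KO.

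Of the 29 clock genes tested, 6 rose in KO and 0 fell. The 6 were Usp2, Ciart, Per1, Nr1d1, Per2 and Bhlhe40, and all of them are E-box or D-box targets, a group of 13 genes. Their fold changes ran from 1.23 to 1.42. Over all 14940 tested genes 3.48% were called, 1.99% higher and 1.49% lower. At an unadjusted p under 0.05, 15 of the 29 clock genes passed by limma, of which 4 were lower in KO. Over all tested genes 26.2% passed at that level, 15.3% with the lower value in KO. The t-test named in the study's methods called 5 clock genes higher after adjustment, without Ciart, and 0 lower. The other 16 clock genes had 0 calls.

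**Figure D1:**
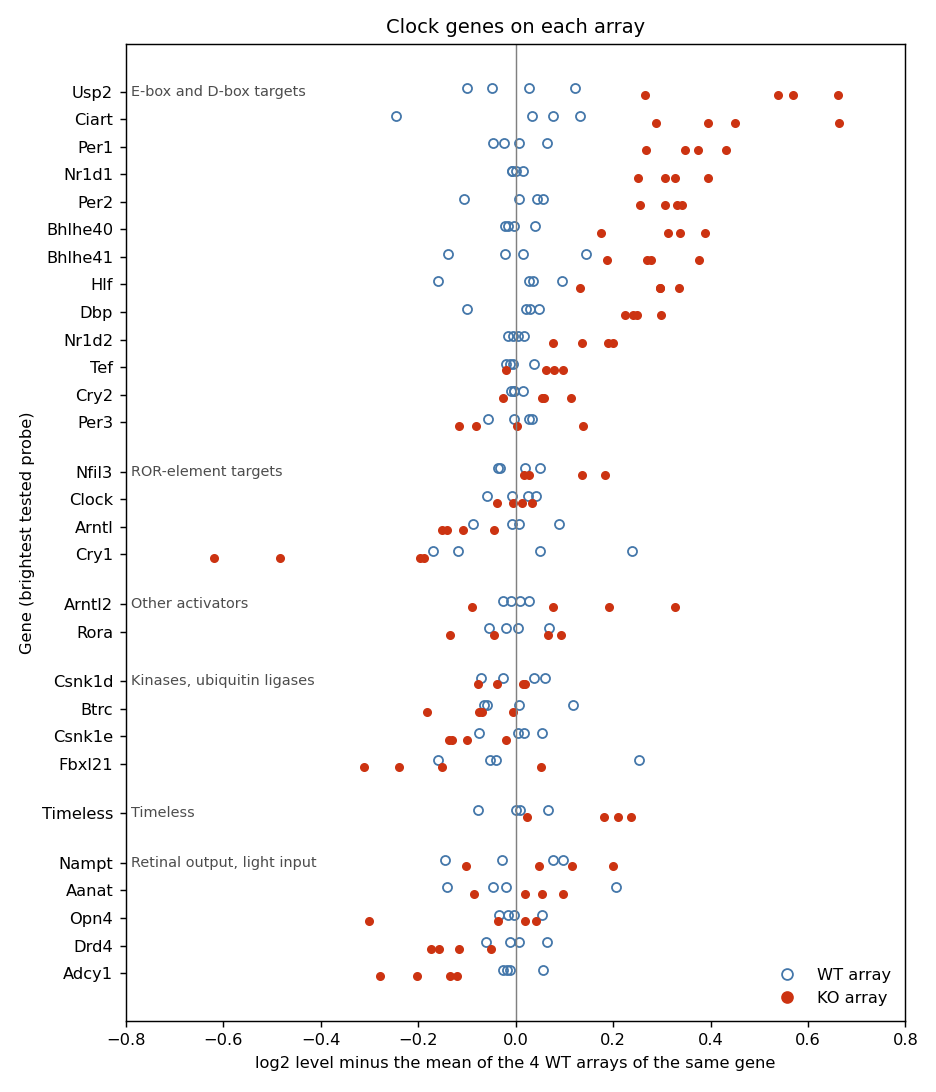
Level of each tested clock gene on each of the 8 arrays, as the log2 difference from the mean of its 4 WT arrays (horizontal axis), with WT and KO arrays as separate symbols and genes grouped by role. In 10 of the 13 E-box and D-box targets every KO array lies above every WT array, while in the other roles the genotypes overlap in all genes but Adcy1 and Cry1, which lie lower in KO.

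The Period genes encode the core repressors. Per1 read 3.44, 3.55, 3.49 and 3.46 on the WT arrays and 3.75, 3.92, 3.83 and 3.86 on the KO arrays. Every KO array was above every WT array, and Per1 rose by 0.36 (SE 0.05, adjusted p = 0.0105 by limma). Per2, the partner of Per1 in the repressor complex, was at -2.10, -1.95, -1.99 and -1.94 in WT and at -1.74, -1.66, -1.69 and -1.65 in KO. The groups did not overlap here either, and the rise was 0.31 (SE 0.05, adjusted p = 0.0154 by limma). Per3, the member that the core clock can run without, did not follow. Its WT arrays ran from -1.27 to -1.18 and its KO arrays from -1.33 to -1.08, which overlap over the whole WT range, with a difference of -0.01 (95% confidence interval -0.15 to 0.12).

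Nr1d1, the gene of the repressor REV-ERB alpha, was the tightest of the 6. The WT arrays stood at 1.11, 1.10, 1.13 and 1.11, and the KO arrays at 1.42, 1.37, 1.44 and 1.51. The gap between the groups was several times the spread within WT, and the rise was 0.32 (SE 0.04, adjusted p = 0.0096 by limma). For its paralog Nr1d2 (REV-ERB beta) the levels were 1.14, 1.16, 1.15 and 1.17 in WT and 1.23, 1.34, 1.29 and 1.35 in KO. These groups did not overlap, but the difference of 0.15 (SE 0.04, adjusted p = 0.0648 by limma) was not called, being 1.11-fold and so under the fold limit as well. After another background correction (normexp) it was 0.0782.

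The feedback repressors that act on CLOCK and BMAL1 from outside the Period and Cryptochrome complex gave a like picture. Ciart (CHRONO) was at -2.52, -2.57, -2.61 and -2.89 in WT and at -1.99, -2.25, -2.36 and -2.20 in KO. No KO array reached down to a WT array, and Ciart rose by 0.45 with the widest error of the 6 (SE 0.10, adjusted p = 0.0465 by limma). Bhlhe40 (DEC1), which competes for E-boxes, was at -1.18, -1.16, -1.18 and -1.12 in WT and -0.99, -0.85, -0.77 and -0.82 in KO, a rise of 0.30 (SE 0.05, adjusted p = 0.0210 by limma). Bhlhe41 (DEC2), its paralog, had 2 probes that disagreed. On the brighter one the WT arrays were at -1.18, -1.35, -1.31 and -1.47 and the KO arrays at -1.06, -0.95, -1.14 and -1.05, without overlap, and the difference of 0.28 missed the threshold (SE 0.07, adjusted p = 0.0531 by limma). On the dimmer probe the genotypes overlapped and differed by -0.01 (adjusted p = 0.934 by limma).

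Usp2, a deubiquitinase transcribed with a strong daily rhythm, had the largest difference of the tested members in the fit to all arrays. It was at 2.44, 2.56, 2.66 and 2.49 in WT and at 2.80, 3.07, 3.10 and 3.20 in KO. The lowest KO array was above the highest WT array, and Usp2 rose by 0.51 (SE 0.09, adjusted p = 0.0233 by limma), or 1.42-fold. Without WT replicate 1 the difference of Ciart was the larger, at 0.494 against 0.475 for Usp2.

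The D-box activators Dbp, Hlf and Tef carry the rhythm to output genes. Dbp was at 6.08, 6.05, 6.06 and 5.93 in WT and 6.27, 6.26, 6.33 and 6.28 in KO. All KO arrays were above all WT arrays, and the difference of 0.25 (SE 0.04) had an adjusted p of 0.0232 by limma but, at 1.19-fold, was under the fold limit, so Dbp was not called. Its dimmer probe differed by 0.16 (SE 0.05, adjusted p = 0.0848 by limma), again with every KO array above every WT array. Hlf was at 2.95, 2.89, 2.88 and 2.69 in WT and 3.15, 3.19, 2.98 and 3.15 in KO, without overlap, and its difference of 0.26 was not called (SE 0.07, adjusted p = 0.0620 by limma). Tef differed less than either, by 0.05 (95% confidence interval -0.04 to 0.15), and its groups overlapped. Cry2, a Cryptochrome repressor, also overlapped and differed by 0.05 (95% confidence interval -0.04 to 0.14). Both depended on the scaling. After quantile normalization Tef was 0.143 and Cry2 0.0857, after cyclic loess Tef was 0.130 and Cry2 0.104, and neither was called.

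Counted over the group, 12 of the 13 E-box and D-box targets had a positive difference, Per3 being the exception, and their median was 0.28. The 29 tested clock genes had 18 positive and 11 negative differences (62.1% positive) and a median of 0.05, where all tested genes had 42.2% positive and a median of -0.02. In 12 clock genes the genotypes did not overlap, 10 of them higher and 2 lower in KO. Over all tested genes 21.2% did not overlap, 8.78% with KO above WT and 12.4% with KO below. For each gene without overlap the two-sided exact permutation test gave p = 0.0286, the smallest that 4 against 4 arrays allow. Lack of overlap always gives this value, so it restates the separation and adds no support.

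**Figure D2:**
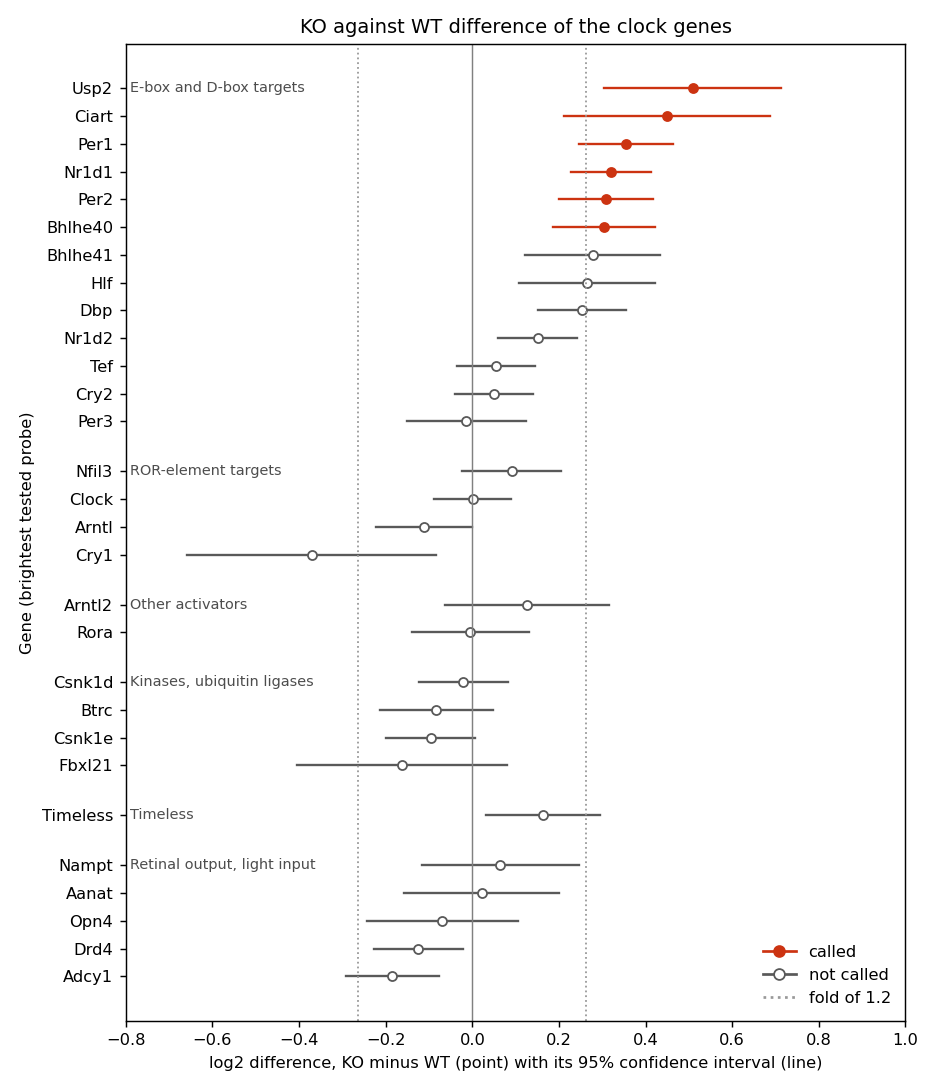
Log2 difference (KO minus WT) of every tested clock gene with its 95% confidence interval from limma, grouped by role, filled where the gene was called, with dotted lines at a fold of 1.2 in either direction. The 6 called genes lie between 0.30 and 0.51. Among the E-box and D-box targets the intervals of Per3, Tef and Cry2 cross 0, and most intervals in the other roles do so too.

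The ROR-element targets and the core activators showed no calls. Arntl, the gene of BMAL1, was at 2.69, 2.77, 2.78 and 2.87 in WT and at 2.63, 2.64, 2.67 and 2.73 in KO. The KO arrays were the lower ones on the whole but 1 of them passed the lowest WT array, and the difference of -0.11 (SE 0.05) was not called (adjusted p = 0.209 by limma). Cry1, which answers to both E-boxes and ROR elements, was at -3.57, -3.79, -3.38 and -3.74 in WT and at -3.82, -4.11, -3.81 and -4.24 in KO. Every KO array was below every WT array, yet the spread was wide for this dim probe and the difference of -0.37 was not called (SE 0.13, adjusted p = 0.120 by limma). With a different background correction (normexp) the difference of Cry1 was -0.15.

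Nfil3, a repressor at D-boxes, overlapped between genotypes with a difference of 0.09 (95% confidence interval -0.02 to 0.21). Clock was level with WT, from -0.04 to 0.07 in WT and from -0.02 to 0.06 in KO, and its interval was -0.09 to 0.09. Arntl2 (BMAL2) differed by 0.13 on its brighter probe (95% confidence interval -0.06 to 0.32). For Rora, the gene of ROR alpha, the interval was -0.14 to 0.13. The 4 tested genes of the ROR-element group had a median of -0.06 (Clock counted among them), beside 0.28 in the E-box and D-box group, and no test of the difference between groups was made.

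Turnover of the clock proteins rests on the casein kinases that mark PER for degradation and on ubiquitin ligases. Csnk1d differed by -0.02 (95% confidence interval -0.12 to 0.08) and Csnk1e by -0.10 (95% confidence interval -0.20 to 0.01), with the second probe of each also without a call. Btrc (beta-TrCP), the ligase component that recognises phosphorylated PER, differed by -0.08 on its brighter probe (adjusted p = 0.417 by limma). On its dimmer probe every KO array was below every WT array, and the difference of -0.12 was not called (SE 0.04, adjusted p = 0.117 by limma). Fbxl21, a ligase component for Cryptochromes, differed by -0.16 (95% confidence interval -0.41 to 0.08), and by -0.0291 after normexp. The brightest probes of all 4 were negative and none passed the test, while the second probes of Csnk1e (0.02) and Fbxl21 (0.0046) were slightly positive and also not called. Timeless, the replication fork protein with a debated part in the mammalian clock, was at -0.09, 0.06, 0.00 and -0.01 in WT and at 0.01, 0.23, 0.17 and 0.20 in KO, with overlap through 1 KO array and a difference of 0.16 (SE 0.06, adjusted p = 0.132 by limma). Its dimmer probe differed by 0.07 (adjusted p = 0.760 by limma), with overlap.

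The genes of the retina's own rhythm had no calls. Adcy1, the adenylyl cyclase that makes cAMP in photoreceptors under clock control, was at 3.80, 3.73, 3.72 and 3.73 in WT and at 3.61, 3.54, 3.47 and 3.62 in KO. The groups did not overlap, KO being lower, and the difference of -0.18 (SE 0.05, adjusted p = 0.0586 by limma) missed the p threshold and was under the fold limit too. Drd4, the photoreceptor dopamine receptor, was at 6.24, 6.30, 6.22 and 6.18 in WT and at 6.19, 6.08, 6.06 and 6.12 in KO. Here 1 KO array overlapped the lowest WT array, and the difference was -0.12 (SE 0.04, adjusted p = 0.139 by limma). That of Drd4 depended on the scaling, at -0.0353 after quantile normalization, -0.0433 after cyclic loess and -0.205 after normexp, and it was not called in any of them. Opn4 (melanopsin of intrinsically photosensitive ganglion cells) differed by -0.07 (95% confidence interval -0.24 to 0.11), Nampt, of NAD synthesis, by 0.06 (-0.12 to 0.25), and Aanat, which makes the precursor of melatonin, by 0.02 (-0.16 to 0.20).

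**Figure D3:**
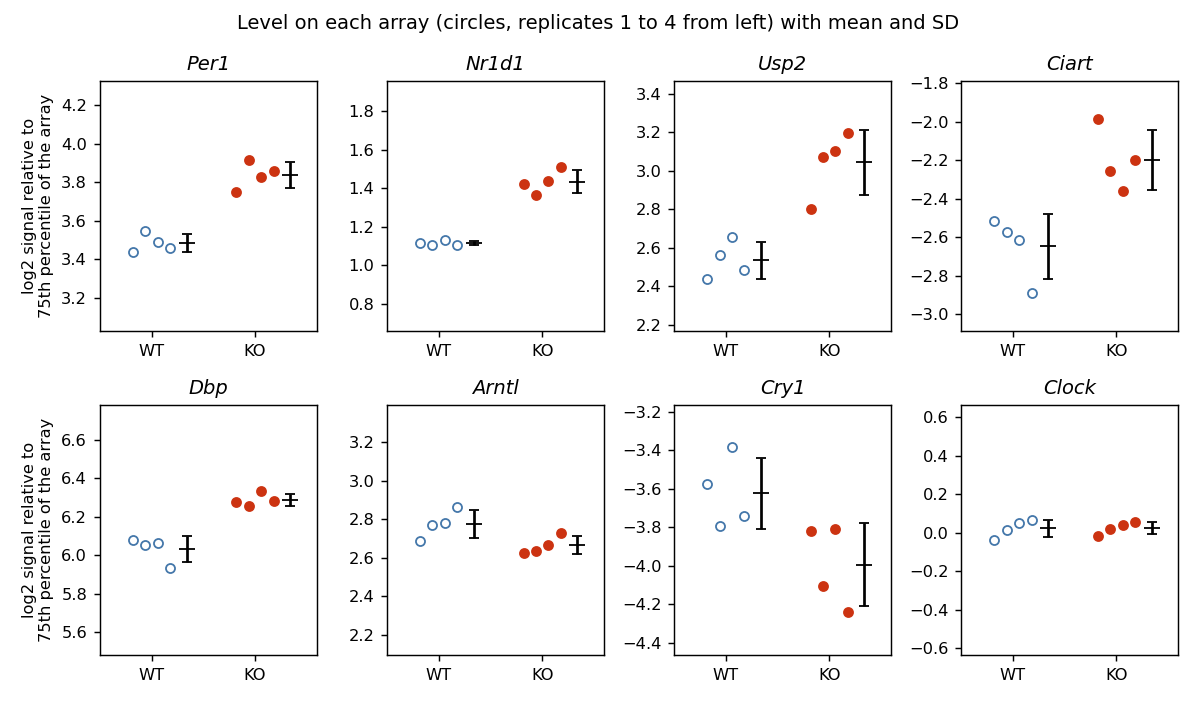
Level on each array (log2 relative to the 75th percentile) of Per1, Nr1d1, Usp2, Ciart, Dbp, Arntl, Cry1 and Clock, with WT arrays as open and KO arrays as filled circles and a bar for the mean and SD of 4 arrays. KO lies wholly above WT in the first 5 genes, wholly below in Cry1, and overlaps WT in Arntl and Clock.

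Among further clock genes, the 24 tested members of a list of other clock machinery (kinases, cofactors and further receptors) had 0 calls, with differences from -0.13 to 0.10 and 8 of 24 positive. Of 7 further output genes 2 rose, Wee1, a kinase that holds back mitosis and carries E-boxes, by 0.34 (SE 0.06, adjusted p = 0.0210 by limma) and Coq10b, a coenzyme Q binding protein, by 0.27 (SE 0.06, adjusted p = 0.0468 by limma). Of 8 tested genes of melatonin and dopamine signalling 0 were called, with differences from -0.12 to 0.39. Of 11 genes through which light and cAMP reach the clock 1 rose, Vip, the neuropeptide of a set of amacrine cells, by 0.34 (SE 0.04, adjusted p = 0.0104 by limma). Sik1, the kinase that limits the response of the clock to light, was higher on every KO array but was not called (0.36, adjusted p = 0.102 by limma).

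Other gene lists moved with genotype on the same arrays, and their part in the clock values was not tested. Since whole retina was used, fewer cells of a type and less RNA per cell cannot be told apart. Of 7 immediate early genes, which neurons switch on within minutes of stimulation, 6 rose, Egr1, Fosb, Fos, Nr4a1 and Junb among them, and the log2 level of their summed signal was 3.58 to 4.11 in WT and 4.88 to 5.77 in KO. Per1 is known as an early gene of this kind as well as an E-box target. Of 7 tested glucocorticoid-responsive genes 3 rose (Mt2, Mt1 and Sgk1), and the sum over them lay from 5.82 to 5.90 in WT against 6.28 to 6.44 in KO.

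Among rod markers, Nr2e3, a rod transcription factor, and Sag, the rod arrestin, fell, with differences of -0.50 (SE 0.08, adjusted p = 0.0212 by limma) and -0.36 (SE 0.04, adjusted p = 0.00517 by limma). Of the cone markers 2 of 5 rose (Arr3 and Opn1sw), the sum lying at 7.02 to 7.08 in WT against 7.27 to 7.35 in KO. Of the microglial markers 5 of 7 rose, the sum lying at 3.25 to 3.36 in WT against 3.64 to 3.68 in KO. Of 5 Müller glia markers 1 rose (Kcnj10), the sum lying at 6.54 to 6.60 in WT against 6.69 to 6.74 in KO. Amacrine and horizontal cell markers had 0 calls of 6, but their sum did not overlap between genotypes, at 6.25 to 6.30 in WT against 6.38 to 6.43 in KO. Slc6a9, with the brightest probe (mean 5.76 in WT and 5.90 in KO), weighs most in that sum. One by one, Gad1 and Slc6a9 did not overlap between genotypes, while Tfap2b, Lhx1, Onecut1 and Calb1 did. Ganglion cell markers also had 0 calls of 6, and their sum lay at 7.18 to 7.21 in WT against 7.22 to 7.29 in KO. Bipolar cell markers had 0 calls of 5 and an overlapping sum, 7.31 to 7.52 in WT against 7.39 to 7.51 in KO. There were also 0 calls among 4 tested markers of the pigment epithelium, 4 of lens and 2 of blood. In each list, every marker with a probe was well above background on at least 1 array.

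**Figure D4:**
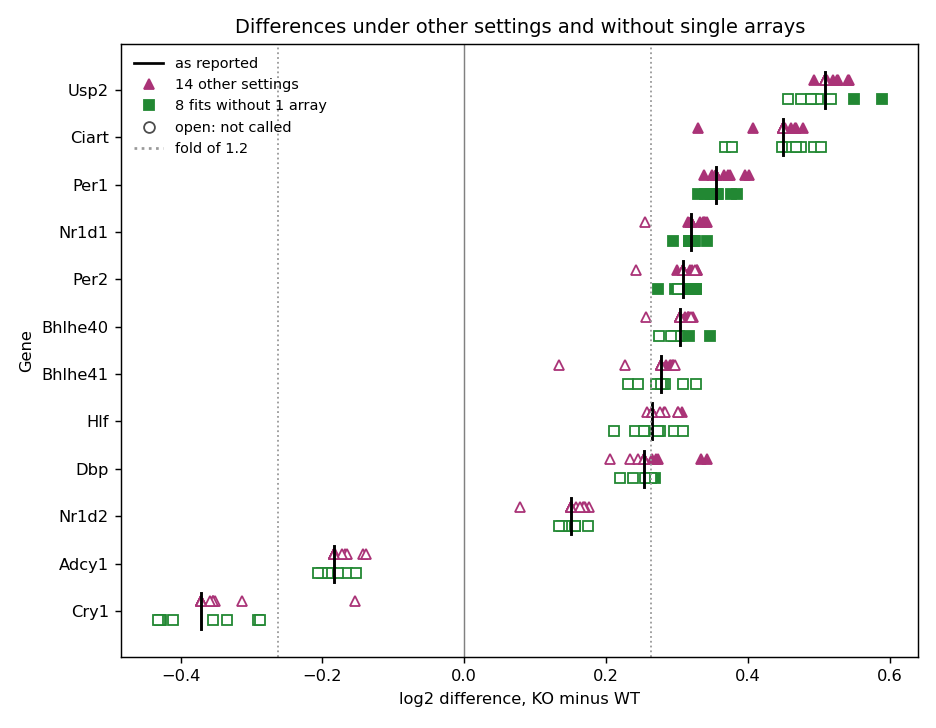
Log2 difference (KO minus WT) of clock genes under each processing alternative and with each array left out, with filled symbols where the gene was called. Per1 and Nr1d1 stay filled with every array left out, while Ciart loses its call in all 8.

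With each array left out in turn, Per1 and Nr1d1 were called in all 8 repeats. Per2 was called in 7 and missed the threshold without KO replicate 2 (adjusted p = 0.0525 by limma). Usp2 kept its call only without WT replicate 3 and without KO replicate 1, and Bhlhe40 only without WT replicate 4 and without KO replicate 1. Ciart was called in 0 of the 8. The number of clock genes called higher was between 2, without KO replicate 2, and 5, without KO replicate 1. It was 3 without WT replicate 2, KO replicate 3 or KO replicate 4, and 4 without WT replicate 1, WT replicate 3 or WT replicate 4.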

How the data were processed

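Total RNA of whole retina was measured in 4 WT and 4 KO samples, with groups and replicate numbers taken from the titles. Each sample was hybridised by the authors in 1 colour to an Agilent SurePrint G3 array, and the scans were read with Agilent Feature Extraction 10.7.1.1, as named in the submitters' processing notes. Deposited scanner files give linear intensity per spot, background-subtracted and not scaled between arrays. The authors' own normalization was a 75th percentile shift, and the deposited series table has it on a log2 scale. That table differed from the levels computed here by a constant of each array (-0.12 to -0.15, SD at most 3.01e-07) and served as an alternative.

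Levels were log2 of the processed signal after subtraction of the 75th percentile of the 59305 non-control spots, without outlier spots (86 to 147 per array) and with repeated spots averaged. A probe was tested when well above background on all 4 arrays of a genotype (33975 of 55681 probes, with 33113 to 36366 well above background per array and 0 saturated). The number of arrays limits the precision. The genotypes were fitted by limma 3.58.1 (lmFit, eBayes; R 4.3.3), p-values were adjusted by Benjamini-Hochberg over the tested probes, and calls needed an adjusted p under 0.05 with over 1.2-fold difference. On simulated data the fit called 10 of 50 probes changed by 0.3 on the log2 scale, 32 of 50 changed by 0.5 and 45 of 50 changed by 1, with 4 of 33753 unchanged ones. Few probes were changed in that simulation, while 8075 of the 33975 tested probes here had an unadjusted p under 0.05 by limma. The adjustment depends on that number, so the simulated shares do not carry over to these data. Symbols came from the RefSeq gene table (GRCm38.p6) by unversioned accession and named 26413 probes (47.4%). The array design used mm9, so the table gave names only. A gene's value is that of its brightest tested probe. All 30 members are named, and of the other lists up to 5 called genes and some uncalled ones, with counts for all but the rod list. Members, lists and tests were chosen with earlier results of these data known. Alternatives were other normalizations (quantile, median shift, cyclic loess, percentile over detected probes) and normexp with offset 50 on the median signals of the spots. Others were no filter or a stricter one, the methods' t-test, limma with trend and robust fitting, and limma with array weights. Outlier spots kept, a replicate block, other fold limits and each array left out were also used. The count and the summed level over the rod marker list are not reported here.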

Additional observations from a re-analysis of the deposited data

Results flagged for a closer look

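In 2 of 72 groups of 4 arrays of a clock probe, 1 array stood apart from the other 3 by more than Dixon's 95% limit, and chance alone gives about 1 such group in 20. For Adcy1, WT replicate 1 was at 3.80, with the nearest other WT array at 3.73. For the dimmer probe of Csnk1d, KO replicate 4 was at -0.17, with the nearest other KO array at -0.29.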

How the results depend on the processing

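The count of clock genes called higher (6) was 2 without a filter on dim probes, 0 with a fold limit of 1.5, and 2 to 5 with single arrays left out. It was 4 after normexp on the median signals (Per1, Usp2, Ciart and Hlf). There Nr1d1, Per2 and Bhlhe40 fell under the fold limit, at 0.254, 0.243 and 0.256. It was 8 after quantile normalization, cyclic loess or limma with trend and robust fitting, and in the deposited table. The count called lower was 0 under every setting. The median over clock genes (0.05) was 0.10 after cyclic loess. Over all probes, 471 higher and 522 lower calls were 139 and 1.1e+02 (rounded to 2 digits) without the filter, and 203 to 502 and 166 to 682 with single arrays left out. The lower calls were 309 after a median shift and 336 after cyclic loess. Samples of the same replicate number correlated at 0.037 to 0.249 in their deviations from the group means, with 7 of 8 arrays correlating best with their own number, a hint from the data and not from the design. With the replicate number as a block, 4 clock genes, 216 higher and 179 lower probes were called. Bhlhe40 and Ciart lost their calls there (adjusted p = 0.0580 and 0.0679 by limma). Values near 0 changed sign. Csnk1d was 0.0452 after quantile normalization and 0.0437 after cyclic loess. Rora was 0.0329 and 0.0337 after these, 0.0121 after a median shift, 0.0147 with the percentile over detected probes, 0.0082 with array weights and 0.0076 in the deposited table. Per3 was 0.0025 after a median shift and 0.0051 with the percentile over detected probes, and Clock was -0.0298 after normexp. With single arrays left out, Clock ran from -0.0189 to 0.0151, Rora from -0.0372 to 0.0386, Aanat from -0.0257 to 0.0903, Per3 from -0.0646 to 0.0197 and Opn4 from -0.106 to 0.0083. In the 14 settings that kept all arrays and the 1.2-fold limit, Per1 was called in 14, Nr1d1 and Usp2 in 13, Per2 and Ciart in 11 and Bhlhe40 in 10. Dbp, not called here, was called in 5 of these, and also without a fold limit, Bhlhe41 in 7 and Hlf in 2. The causes were not tested.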

Other observations

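The values by array restate the differences above and add no separate support. For the E-box and D-box targets, the median over the 13 genes of the deviation from each gene's mean over all 8 arrays was -0.09, -0.11, -0.12 and -0.17 on WT replicates 1 to 4 and 0.09, 0.16, 0.06 and 0.16 on KO replicates 1 to 4. The same median over the ROR-element targets was -0.05, 0.00, 0.04 and 0.05 in WT and -0.03, -0.05, 0.01 and -0.00 in KO. The medians of the ROR-element targets overlapped between WT and KO arrays, although Cry1 by itself did not.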
